A study of Mus musculus with 10 samples.

Results

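Cxcl12 and its receptors Cxcr4 and Ackr3 were examined in embryonic kidneys with and without a stromal deletion of Ntn1. The genes were taken by name as the ligand and its 2 receptors, which gave 3 of the 35663 gene rows in the expression table. RNA was sequenced from whole mouse kidneys of the C57/b6 strain at E13.5, in 4 wild type, 3 Cre control and 3 mutant libraries. Cre controls carried Foxd1-Cre, a GFP-Cre fusion placed at the Foxd1 gene that makes Cre in stromal progenitors. Mutants carried the same Foxd1-Cre together with the conditional allele in the form Foxd1-Cre;Ntn1c/c, in which Ntn1, a secreted guidance protein, is removed from stromal cells and their descendants. The wild type label was taken to mean neither allele, so Foxd1-Cre was shared by mutants and Cre controls and taken as absent from wild type. The comparison of mutants with Cre controls asks what follows deletion of Ntn1. The comparison of Cre controls with wild type asks what differs between carriers of Foxd1-Cre and kidneys without it. The paper raises the loss of a Foxd1 allele through this insertion as a possible contributor to ectopic vessels outside the kidney.

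CXCL12 is a secreted chemokine that is retained by heparan sulfate on cell surfaces and matrix. CXCR4 is a G protein coupled receptor through which CXCL12 guides migrating cells and growing vessels, and in the embryonic kidney the ligand is known from stromal cells and podocytes while the receptor is known from endothelium and nephron progenitors. ACKR3, formerly CXCR7, binds CXCL12 without G protein signalling and removes it by internalisation, which shapes the gradient that CXCR4 reads.

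In the annotation GENCODE M21 on GRCm38, Cxcl12 (ENSMUSG00000061353.11) lies at chr6:117168535-117181367 on the plus strand. Cxcr4 (ENSMUSG00000045382.6) lies at chr1:128588199-128592293 on the minus strand, and Ackr3 (ENSMUSG00000044337.5) at chr1:90203980-90216751 on the plus strand. Annotated Cxcl12 transcripts with complete coding sequences share their first 267 coding bases and differ at the end. The levels below are 1 value per gene, so they add these isoforms together, and the ends are shown because they are what the gene level cannot separate. Capitals mark the bases that follow the shared part, up to and including the stop codon.

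Cxcl12-202: gctttaaacaagTAA
Cxcl12-203: gctttaaacaagAGGCTCAAGATGTGA
Cxcl12-201: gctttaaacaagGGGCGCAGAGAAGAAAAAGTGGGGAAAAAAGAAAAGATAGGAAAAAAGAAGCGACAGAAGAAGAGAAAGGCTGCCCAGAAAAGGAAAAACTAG

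The coding sequences of these transcripts are 270, 282 and 360 bases long, for 89, 93 and 119 codons without the stop. The long end of Cxcl12-201 is rich in lysine and arginine codons, the kind of residue that binds heparan sulfate. The receptors were compared at the Asp-Arg-Tyr motif, which in chemokine receptors takes part in G protein coupling. Capitals mark the motif and the 4 codons after it.

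Cxcr4-201: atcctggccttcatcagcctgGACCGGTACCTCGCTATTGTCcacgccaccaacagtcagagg
Ackr3-201: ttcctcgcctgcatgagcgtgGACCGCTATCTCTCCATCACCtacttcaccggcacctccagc

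The motif starts at codon 135 of 359 in Cxcr4-201, where it is the first of 2 matches, and at codon 141 of 362 in Ackr3-201. Over the 7 codons in capitals, 7 of 21 bases differed and 2 codons coded for another residue. Over 343 aligned residues the translated receptors were identical at 28.3%.

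Levels are in FPKM, a unit of fragments scaled to gene length, so that genes of different length can be set side by side. The deposited values were already scaled between libraries, though not to equal totals. Ntn1 itself checked the labels: the mutants held 16.3, 13.1 and 10.7 FPKM, the Cre controls 40.7, 24.2 and 51.4, and wild type libraries from 27.1 to 46.3, with every mutant below every other library. Markers of kidney compartments were present, among them stromal Foxd1 at a mean of 20.1 FPKM and Six2 of nephron progenitors at 79.7. Podocyte genes were near the floor, with Nphs1 at a mean of 0.42 FPKM and Ptpro at 0.59, and Wt1 at 82.0 FPKM is shared with nephron progenitors. Cre control replicates 1 and 3 stood apart in stromal genes, and replicate 3 alone also in muscle and ureteric genes. The summed level of 12 skeletal muscle genes was 1075 FPKM in Cre control replicate 3 against 60.9 to 258.6 in the other libraries, and the summed level of 14 stromal genes was 2413 and 2699 FPKM in these 2 libraries against 1418 to 1747 in the others. The summed level of 9 erythroid genes was 16120 and 18056 FPKM in the same libraries and 18628 in mutant replicate 3, against 4767 to 10798 elsewhere. Ureteric genes summed to 170.0 FPKM in Cre control replicate 3 and to 292.6 or more in every other library. Y-linked transcripts were at 88.6 to 98.1 FPKM in all 3 mutants, Cre control replicate 2 and wild type replicate 3, and at or below 1.02 in the rest, so embryo sex also differed between groups. Whole kidneys do not show whether a level moved through the number of cells or through RNA per cell. The labels do not say which libraries came from separate litters, and p-values measure the spread between these libraries.

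Cxcl12 was the most abundant of the 3 genes. It stood at 89.3, 83.2, 87.9 and 78.9 FPKM in wild type replicates 1 to 4. In the Cre controls it was 155.1, 88.1 and 203.9 FPKM, and in the mutants 92.5, 111.8 and 118.9 FPKM. Wild type was tight, all mutants lay above it, and the Cre controls were split between 1 library at the wild type level and 2 libraries above every mutant.

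**Figure D1:**
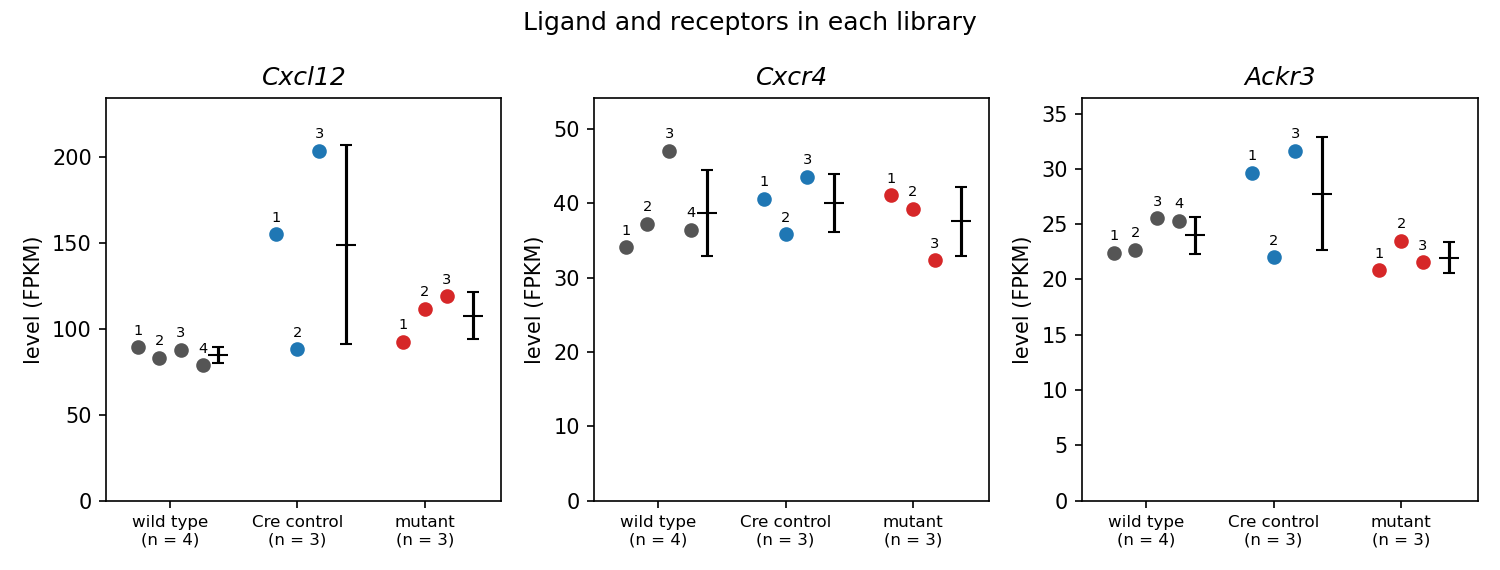
Level in FPKM (vertical axes, from 0) of Cxcl12, Cxcr4 and Ackr3 in 4 wild type, 3 Cre control and 3 mutant libraries, with replicate numbers beside the points and the mean ± SD as bars. Cxcl12 ran from 78.9 to 203.9 FPKM with its widest spread in the Cre controls, while both receptors overlapped between all groups.

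Cxcr4 was at 34.1, 37.2, 47.1 and 36.4 FPKM in wild type, at 40.6, 35.9 and 43.6 in the Cre controls, and at 41.1, 39.2 and 32.4 in the mutants. The groups overlapped, and both the highest and the lowest library were set by single replicates, wild type replicate 3 and mutant replicate 3. Ackr3 was at 22.4, 22.7, 25.5 and 25.3 FPKM in wild type, at 29.6, 22.0 and 31.7 in the Cre controls, and at 20.8, 23.5 and 21.5 in the mutants. Its highest libraries were Cre control replicates 1 and 3, the same libraries in which Cxcl12 was highest. The means ± SD were 84.8 ± 4.71 FPKM (n = 4), 149.1 ± 58.1 (n = 3) and 107.7 ± 13.7 (n = 3) for Cxcl12 in wild type, Cre controls and mutants. For Cxcr4 they were 38.7 ± 5.76, 40.0 ± 3.90 and 37.6 ± 4.59, and for Ackr3 24.0 ± 1.65, 27.8 ± 5.09 and 22.0 ± 1.39.

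Among 14534 genes, the mean level of Cxcl12 ranked 988, that of Cxcr4 3103 and that of Ackr3 4677. The ratio of the highest to the lowest library was 2.58 for Cxcl12, 1.46 for Cxcr4 and 1.52 for Ackr3. The spread within groups was larger for Cxcl12 than for 79.9% of genes, against 50.6% for Cxcr4 and 46.2% for Ackr3.

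Mutants were first compared with Cre controls. None of the 3 genes was called, where a call needed an adjusted p under 0.1 and at least a 2-fold change in limma, a linear model fitted over all genes on log2(FPKM + 0.1), and 0.055% of all tested genes were called. The estimate for Cxcl12 was -0.39 on the log2 scale (SE 0.30, 95% interval -1.11 to 0.33, adjusted p = 0.551 in limma). For Ackr3 the difference was -0.32 on the log2 scale (SE 0.14, -0.67 to 0.03, adjusted p = 0.447 in limma) and for Cxcr4 -0.09 (SE 0.12, -0.38 to 0.19, adjusted p = 0.704). None of the 3 reached an unadjusted p under 0.05, which 10.7% of genes did, and none separated the groups, which 19.9% of genes did. An exact permutation test of 3 against 3 cannot go below 0.1, and gave 0.4, 0.2 and 0.6 for Cxcl12, Ackr3 and Cxcr4. Ntn1, the deleted gene, was not called either, at -1.48 on the log2 scale (unadjusted p = 0.00198, adjusted p = 0.447 in limma). Against wild type Ntn1 was at -1.30 (adjusted p = 0.140 in limma) and again not called. A gene can thus differ between these groups and still miss the call. The interval for Cxcl12 includes both a 2-fold fall and no change, so these libraries excluded neither.

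This estimate for Cxcl12 rested on which Cre control was used. Without Cre control replicate 2 it was -0.73 on the log2 scale (adjusted p = 0.140 in limma), and without replicate 3 it was -0.13. With embryo sex as a covariate it turned to 0.28, and the estimate for Ackr3 went from -0.32 to -0.005. The only Cre control with Y-linked transcripts held 88.1 FPKM of Cxcl12, against 92.5 to 118.9 in the 3 mutants, which all had such transcripts. Stromal markers moved with the ligand: 12 of 14 had lower values in mutants, their median being -0.34 on the log2 scale against 0.01 over all tested genes, and none of the 14 had an unadjusted p under 0.05. The part of sex, of stromal content and of muscle content in the Cxcl12 values was not tested.

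**Figure D2:**
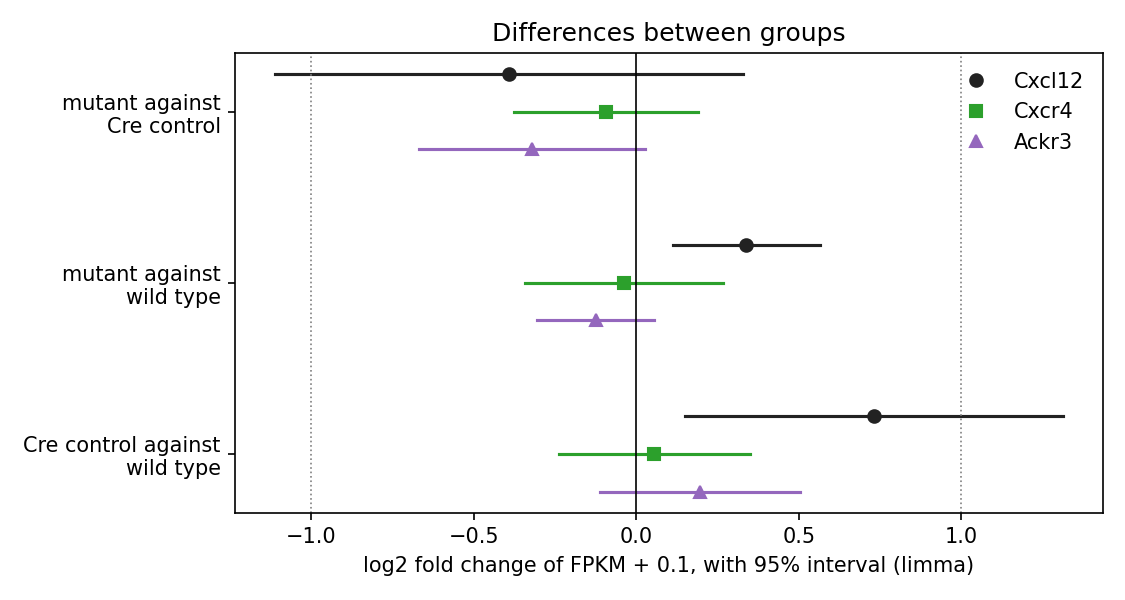
Log2 fold change of FPKM + 0.1 (horizontal axis) with its 95% interval from limma for each gene in the 3 comparisons, with dotted lines at a 2-fold change. Intervals of Cxcr4 and Ackr3 include 0 throughout, and those of Cxcl12 lie above 0 in both comparisons with wild type.

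In mutants against wild type the log2 difference of Cxcl12 was 0.34 (SE 0.10, 95% interval 0.11 to 0.56), or 1.26-fold, with an unadjusted p of 0.00901 and a limma adjusted p of 0.541. All 3 mutants lay above all 4 wild type libraries, and the exact permutation p was 0.0286, the smallest that 3 against 4 can give. Neither Cxcl12 nor the receptors were called, where 0.0485% of genes were. It was 1 of the 3 genes with an unadjusted p under 0.05, which 5.76% of genes reached, and 1 of 3 whose groups did not overlap, as for 7.1% of genes. The log2 difference was -0.13 for Ackr3 (95% interval -0.31 to 0.06, adjusted p = 0.947 in limma) and -0.04 for Cxcr4 (-0.34 to 0.27, adjusted p = 0.972), which became 0.016 when libraries were scaled to the same total and -0.33 with embryo sex as a covariate (SE 0.14, adjusted p = 0.167). All mutants and 1 of the 4 wild type libraries held Y-linked transcripts, and that library, replicate 3, had 87.9 FPKM of Cxcl12. Other cell markers moved in the same comparison. Of 14 endothelial markers 13 had higher values in mutants, 4 of them at an unadjusted p under 0.05, with a median of 0.23 on the log2 scale. All 9 erythroid genes had higher values, none at that threshold, and 8 of 10 tested skeletal muscle genes had lower values at that threshold. Their part in the Cxcl12 values was not tested.

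In Cre controls against wild type the estimate for Cxcl12 was 0.73 on the log2 scale (SE 0.25, 95% interval 0.15 to 1.31), or 1.66-fold. The unadjusted p was 0.0201, the limma adjusted p 0.665 and the exact permutation p 0.0571, since 2 of the 3 Cre controls lay above all wild type libraries and the other lay within them. None of the 3 genes was called, against 0.00685% of all genes. Cxcl12 alone had an unadjusted p under 0.05, which 7.06% of genes had, and none of the 3 separated the groups, as 8.09% did. Without Cre control replicate 2 the log2 fold change of Cxcl12 was 1.07 with a limma adjusted p of 0.0761, which passes the call, and without replicate 3 it was 0.46. The receptors differed by 0.20 (Ackr3, adjusted p = 0.680 in limma) and 0.05 (Cxcr4, adjusted p = 0.897) on the log2 scale. The 2 high Cre controls lacked Y-linked transcripts, as did the wild type libraries at 78.9 to 89.3 FPKM of Cxcl12 apart from replicate 3. All 9 erythroid genes had higher values in Cre controls at an unadjusted p under 0.05, with a median of 1.04 on the log2 scale. Of 14 stromal markers 10 had higher and 4 lower values, 2 of the higher ones at that threshold, with a median of 0.15. Of 14 endothelial markers 12 had higher and 2 lower values, 3 of the higher ones at that threshold. All 10 tested skeletal muscle genes had higher values, none at that threshold. Over all tested genes 51.6% had lower values. The part of these markers in the Cxcl12 values was not tested. Both comparisons with Cre controls and both with wild type share libraries, so their values are not independent.

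Levels were then set against markers of the cells that are known to make or read the signal. The log2 level of Cxcl12 minus the mean log2 level of 14 stromal markers was 0.23, 0.26, 0.40 and 0.07 in wild type. It was 0.66, 0.42 and 0.99 in the Cre controls and 0.49, 0.75 and 0.70 in the mutants. Every library carrying Foxd1-Cre was above every wild type library. The difference from wild type was 0.45 for Cre controls and 0.41 for mutants, with an exact permutation p of 0.0286 for each, the smallest possible, and 0.129 after Benjamini-Hochberg adjustment over 9 tests. Mutants and Cre controls overlapped, with a difference of -0.04 and an exact permutation p of 1.0. Leaving out any 1 library kept the direction of both differences from wild type. Foxd1, the gene that carries the Cre insertion, is itself among the 14 stromal markers, at a mean of 24.4 FPKM in wild type, 19.95 in Cre controls and 14.6 in mutants. With the other 13 markers, an alternative chosen after seeing the data, the differences were 0.41 for Cre controls and 0.36 for mutants, each with an exact permutation p of 0.0571. The Cre controls, at 0.25 to 0.84, then overlapped wild type, at -0.03 to 0.27, and the mutants, at 0.32 to 0.59, stayed above it.

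**Figure D3:**
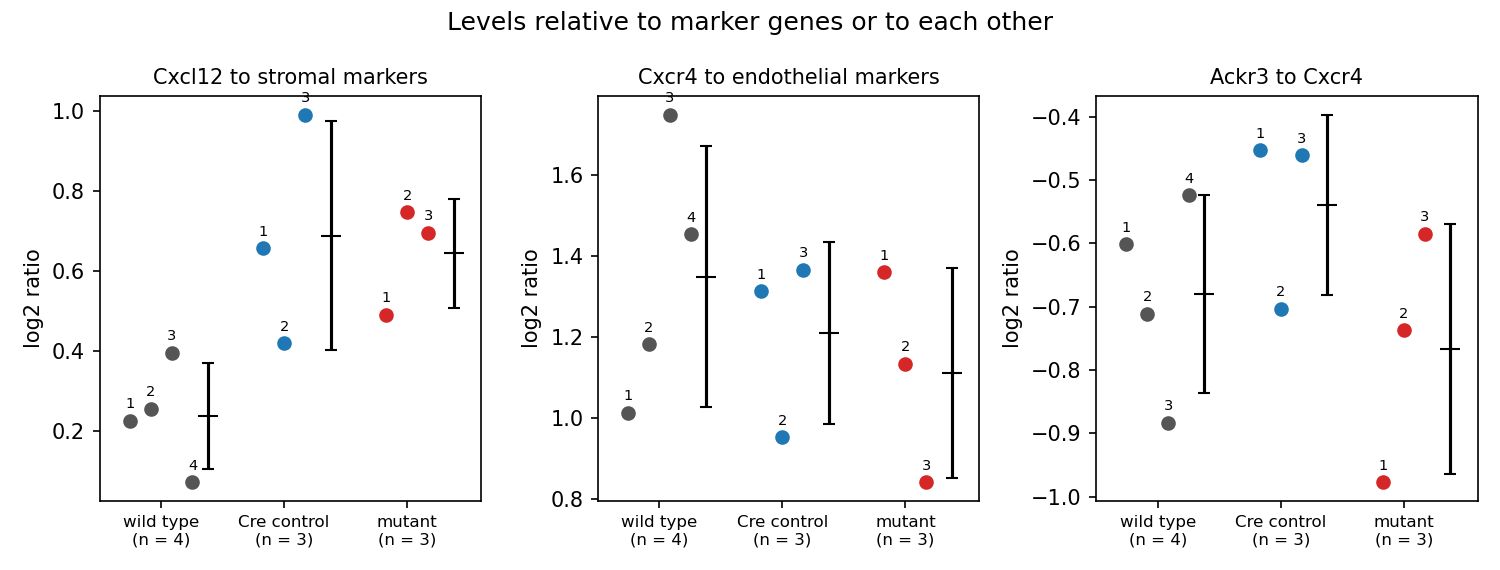
Log2 ratios (vertical axes, not from 0) of Cxcl12 to the mean of 14 stromal markers, of Cxcr4 to the mean of 14 endothelial markers and of Ackr3 to Cxcr4 in each library, with the mean ± SD as bars. The first ratio was at most 0.40 in wild type and at least 0.42 in every library with Foxd1-Cre, a separation that Cre controls lost when Foxd1 was left out of the markers, while the other 2 overlapped between groups.

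Cxcr4 relative to 14 endothelial markers, of which Cdh5, the vascular cadherin, was highest at a mean of 44.8 FPKM, ranged on the log2 scale between 1.01 and 1.75 (wild type), 0.95 and 1.37 (Cre controls) and 0.84 and 1.36 (mutants). The difference between mutants and Cre controls was -0.10 (exact permutation p = 0.6). The log2 ratio of Ackr3 to Cxcr4 was -0.68 ± 0.16 (SD, n = 4) in wild type, -0.54 ± 0.14 (n = 3) in Cre controls and -0.77 ± 0.20 (n = 3) in mutants, so Ackr3 was the lower of the 2 receptors in every library. Its difference between mutants and Cre controls was -0.23 (exact permutation p = 0.2).

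Across the 10 libraries, Cxcl12 and Ackr3 had Pearson's r = 0.732 (permutation p = 0.0211, adjusted 0.0632 over 3 pairs) and Spearman's rho = 0.188 (permutation p = 0.607). Without Cre control replicates 1 and 3, r was -0.388 over 8 libraries, so the relation rested on those 2 libraries. Cxcr4 and Ackr3 had r = 0.563 and rho = 0.564 (adjusted permutation p = 0.139 and 0.290), and r was 0.583 without wild type replicate 3 and mutant replicate 3. Cxcl12 and Cxcr4 had r = 0.299 and rho = 0.176 (adjusted permutation p = 0.399 and 0.630), and r was -0.252 without Cre control replicates 1 and 3.

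**Figure D4:**
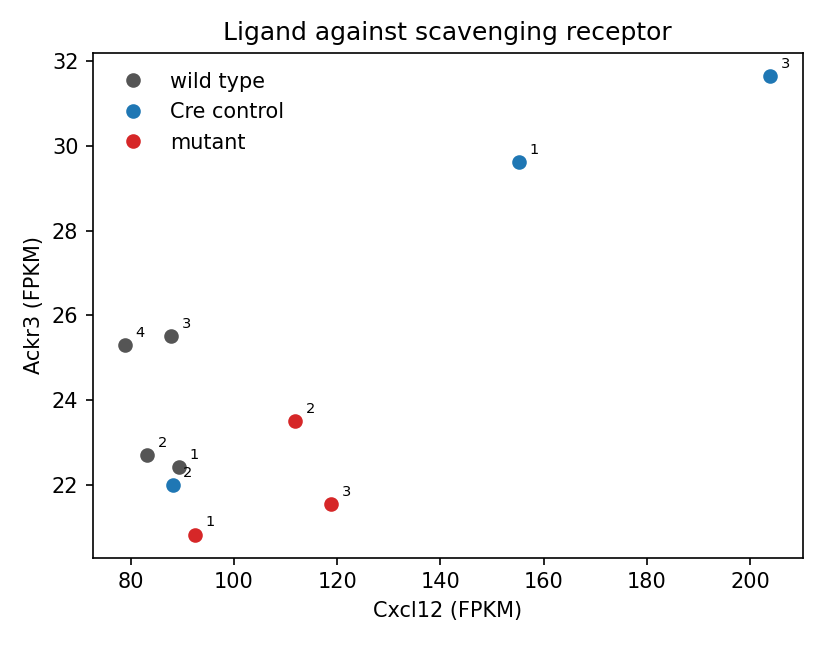
Ackr3 level against Cxcl12 level, both in FPKM on axes that do not start at 0, for 10 libraries with replicate numbers beside the points. Cre control replicates 1 and 3 lie at the upper right, and the other 8 show r = -0.388.

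The genes whose log2 levels followed each of the 3 most closely over the 10 libraries were named by the highest Pearson's r among 12134 genes, as a description. For Cxcl12 they were Ccn2 (r = 0.992), Fbln5 (0.974), Rtn4r (0.974), Ccn3 (0.957) and Thbd (0.953). These genes too were highest in Cre control replicates 1 and 3, as for Ccn3 at 5.44 and 8.90 FPKM against 1.58 to 3.11 in the others. Without these 2 libraries r was 0.963 for Ccn2, 0.920 for Fbln5, 0.934 for Rtn4r, 0.705 for Ccn3 and 0.748 for Thbd over 8 libraries. Ccn2 and Ccn3 are secreted matricellular proteins, Fbln5 takes part in elastic fibre assembly and Thbd is the endothelial thrombin receptor thrombomodulin. Fbln5 had a mean of 14.0 FPKM in wild type, 32.4 in Cre controls and 22.6 in mutants, the order seen for the ligand. For Ackr3 they were Smpd1 (0.967), Twist2 (0.967), Dsel (0.961), Alkbh4 (0.959) and Ogn (0.952). These were also highest in Cre control replicates 1 and 3, and without those 2 libraries r was 0.816 to 0.913. For Cxcr4 they were Mipol1 (0.960), Ift22 (0.939), Jam3 (0.934), Smco4 (0.924) and Ap3s1 (0.919). All 5 were highest in wild type replicate 3, as was Cxcr4, and r without that library was not computed. Twist2 is a mesenchymal transcription factor, Ogn a matrix proteoglycan and Jam3 a junctional adhesion molecule. Ranked by Spearman's rho, none of the 5 genes was shared for Cxcl12 or Ackr3 and 2 of 5 for Cxcr4.

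Cxcl12 stood far above the other chemokines. Of 33 other chemokine ligands, 13 had a mean of at least 0.5 FPKM and 2 of at least 10, the platelet chemokine Pf4 at 13.1 and the B cell chemokine Cxcl13 at 10.6, against 111.0 for Cxcl12. Of 20 other chemokine receptors in the table, 4 had a mean of at least 0.5 FPKM, led by the macrophage receptor Cx3cr1 at 2.30, against 38.8 for Cxcr4 and 24.5 for Ackr3. None of the tested chemokine ligands or receptors was called in any comparison. Pf4 was at a log2 fold change of -0.55 in mutants against Cre controls with an unadjusted p of 0.0463 (limma adjusted p = 0.447). Cxcl13 was 15.7, 5.57 and 37.7 FPKM in the Cre controls and 3.31 to 10.5 in the other libraries, so its highest libraries were again Cre control replicates 1 and 3. Ccl25 was at 0.24 in mutants against wild type (unadjusted p = 0.0159, limma adjusted p = 0.686), and Cxcl16 at 0.58 in Cre controls against wild type (unadjusted p = 0.0420, limma adjusted p = 0.665).

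**Figure D5:**
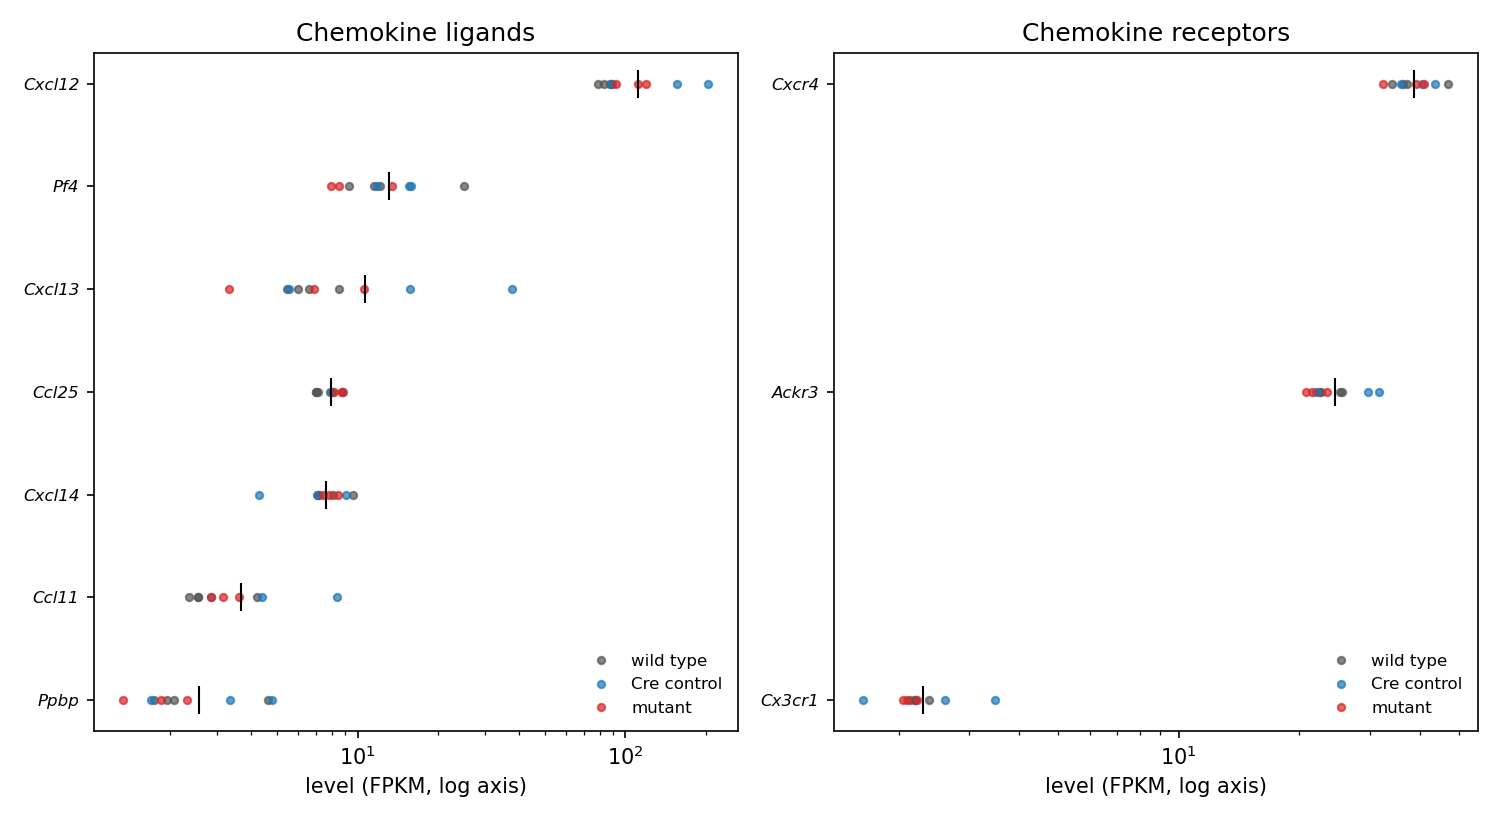
Level in FPKM (log axis) of the chemokine ligands and receptors with a mean of at least 2 FPKM, 1 point per library and a bar at the mean of all 10 libraries. Cxcl12, Cxcr4 and Ackr3 lie above every other member of their class, with Pf4 at 13.1 FPKM and Cx3cr1 at 2.30 FPKM next in mean level.

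Other genes of the pathway came from a list of 31, of which 28 were tested. None was called in any comparison. In mutants against Cre controls 15 had higher and 13 lower values, and their median was 0.02 on the log2 scale against 0.01 over all tested genes. Among other ligands of these receptors, Mif, a cytokine that also binds CXCR4 and ACKR3, was the highest gene of the list at 701.5 FPKM, Adm, the adrenomedullin that ACKR3 clears, was at 1.32, and Cxcl11, the other chemokine ligand of ACKR3, was listed at 0 in all libraries. Adm was 0.92, 0.98 and 0.89 FPKM in the mutants and 2.63, 0.98 and 2.09 in the Cre controls, a log2 difference of -0.86 (adjusted p = 0.447 in limma). Of genes that retain or cut the ligand, the heparan sulfate proteoglycan Gpc3 was highest at 458.4 FPKM. Dpp4, the protease that inactivates CXCL12, was 6.84, 7.23, 7.96 and 4.80 FPKM in wild type, 4.64, 6.24 and 2.23 in Cre controls and 4.57, 4.49 and 4.46 in mutants. The log2 difference was -0.54 in mutants against wild type (unadjusted p = 0.0126, adjusted p = 0.629 in limma) and 0.16 in mutants against Cre controls (unadjusted p = 0.664). Dpp4 was the only 1 of the 28 tested pathway genes under an unadjusted p of 0.05 in mutants against wild type. Of all tested genes 5.76% were under it, so the list held no excess of such genes.

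Downstream of the receptors, the inhibitory G protein subunit Gnai2 was at a mean of 170.2 FPKM, the receptor kinase Grk6 at 31.8, the arrestin Arrb2 at 16.4 and the small GTPase Rac1 at 286.8. In mutants against Cre controls Rac1 had a log2 difference of 0.13 (unadjusted p = 0.0349, adjusted p = 0.447 in limma), and the groups did not overlap. Of all tested genes 10.7% had an unadjusted p under 0.05 in this comparison, and 19.9% did not overlap. The mean of Rac1 was 295.6 FPKM in wild type, 268.5 in Cre controls and 293.4 in mutants, and every Cre control lay below every other library. In Cre controls against wild type Gnai1 was at -0.38 (unadjusted p = 0.0375) and Rac2, the GTPase of blood cells, at 1.63 (unadjusted p = 0.0410), both with a limma adjusted p of 0.665. The Rac2 value came largely from Cre control replicate 3 at 9.33 FPKM, against 0.53 to 1.12 in wild type and mutants. Of the transcription factors known to regulate the pathway, Hif1a was highest at 60.4 FPKM, and the Cxcl12 regulator Foxc1 was at 22.2, 22.0 and 22.3 FPKM on average in wild type, Cre controls and mutants.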

How the data were processed

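RNA from whole E13.5 kidneys was sequenced by the authors, who estimated transcript abundance with Salmon against coding sequences of GRCm38. The submitters' notes name bcl2fastq 2.17.1.14 and Salmon. The authors deposited 1 table of FPKM values per gene for 10 libraries, and how FPKM was derived from the Salmon estimates is not given in the sources used here. The median ratio to a common reference was 1.002 in every library, so the values were already scaled to each other by that measure. Their totals were not equal: FPKM summed to 1002638 in wild type replicate 3 and to 795829 to 874966 in the other libraries. Because the index held coding sequences, reads from untranslated regions did not count. No total counts were used, and depth is unknown: a search for whole-fragment steps among low values gave answers that changed with the range searched, so no counting interval is given. All 10 columns matched a sample title.

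After addition of 0.1, FPKM was log2 transformed and fitted by limma 3.58.1 (R 4.3.3, eBayes with trend), over genes whose average reached 0.5 FPKM in the fitted libraries and within the groups compared, with Benjamini-Hochberg adjustment. This kept 14550, 14432 and 14594 genes for mutants against Cre controls, mutants against wild type and Cre controls against wild type. A fold change on this scale understates the change of low genes. Single values were tested with exact two-sided permutation tests (Python 3.11.15, scipy 1.17.1). Tested on simulated data with 4-fold differences, the fit recovered 85.4%, 90% and 91.9% of them in these comparisons, with 5, 9 and 6 false calls. The simulated noise was independent between genes, so shifts shared by many genes in a library were left out. The recovery therefore does not give the power for the smaller differences of the 3 members. In the real data the deleted gene Ntn1 was not called in mutants against Cre controls or against wild type. The authors' own differential test was not used, since it needs counts. Members and lists were chosen with earlier results of these data known. Named genes were the 3 members, the highest genes of each pathway role or chemokine list, those with an unadjusted p under 0.05, and the 5 genes most correlated with each member. Genes named beyond these, among them Adm, Cxcl11 and Foxc1, were chosen after their values were seen, and 1 gene that the rule names is not reported here. Embryo sex was read from 4 Y-linked genes. Alternatives changed the pseudocount, filter, scaling, moderation, samples, pairing, sex term and replicates.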

Additional observations from a re-analysis of the deposited data

How the results depend on the processing

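No member changed its call in 168 alternative values except Cxcl12 in Cre controls against wild type, whose log2 fold change without single replicates ran from 0.464 to 1.069 and passed the call at the upper end, without Cre control replicate 2. Directions turned in 8 of them. In mutants against Cre controls, embryo sex as a covariate gave 0.281 for Cxcl12, 0.059 for Cxcr4 and -0.005 for Ackr3, and leaving out replicates gave Cxcr4 from -0.171 to 0.009. In mutants against wild type, scaling to the same total gave Cxcr4 0.016, and leaving out replicates gave -0.108 to 0.064. In Cre controls against wild type that range was -0.009 to 0.153. The causes were not tested.

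Of the log2 ratios, Cxcl12 to stromal markers without single libraries was 0.352 to 0.484 in mutants and 0.301 to 0.586 in Cre controls against wild type, where fewer libraries put the smallest exact permutation p above 0.05. Leaving Foxd1 out of the markers, chosen after seeing the data, gave 0.357 and 0.407, both with an exact permutation p of 0.0571. It was -0.179 to 0.106 in mutants against Cre controls. Cxcr4 to endothelial markers was -0.228 to 0.036 in that comparison, and Ackr3 to Cxcr4 was -0.177 to 0.019 in mutants against wild type.

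The genes called numbered 8 in mutants against Cre controls, 7 in mutants against wild type and 1 in Cre controls against wild type. With no filter on low values they were 21, 18 and 9, and with all 10 libraries in one limma fit 0, 0 and 0, where 1598, 636 and 1496 genes had an unadjusted p under 0.05. A pseudocount of 1 gave 2 in both comparisons with wild type, a pseudocount of 0.01 gave 2 in Cre controls against wild type, and no intensity trend gave 12 and 4 in those against wild type. The sex covariate gave 4 in mutants against Cre controls and 187 in mutants against wild type. Leaving out replicates gave 3 to 78, 1 to 20 and 3 to 20, the upper ends without Cre control replicate 2, wild type replicate 4 and Cre control replicate 2. With the replicate number as a replicate block the counts were 4, 6 and 0 in limma, the last with 1088 genes at an unadjusted p under 0.05, and no member changed its call. Same-numbered libraries did not deviate together (r from -0.04 to 0.08), so the numbers were not read as pairs. Depth could not be recovered, so counting error is unknown.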
